A study of Mus musculus with 130 samples.

Results

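Mouse embryonic stem cells collected on day 4 of treatment with UNC0638, an inhibitor of G9a and GLP, were compared with the vehicle control of the same inhibitor series, 1 RNA-seq library each. The comparison covers the 13112 genes that reached at least 1 CPM (counts scaled to the size of each library) in either library, of 52550 genes in the deposited tables. These are 2 of the 10 RNA libraries among the 130 samples of the series, and the other 120 samples were not analysed here. The day 4 cells and the vehicle control cells are wild type at both genes (genotype WT, strain C57BL/6xCBA, line TT2), and were grown on gelatin in serum with leukemia inhibitory factor. The control received DMSO, the solvent. Sample titles state a dose of 250 nM, whereas the protocol text states 250 µM, and which was used cannot be told from them. The labels do not give the day on which the control was collected, nor say whether the cells came from separate cultures or whether day 14 cells were treated throughout. The other libraries used beside this comparison were UNC0638 on day 2 and on day 14 (the same wild-type cells and dose label), a G9a-/-;GLP-/- line (the library labelled G9a/GLP DKO), a G9a-/- line that carries a G9a transgene with 2 amino acid substitutions (G9a CM), and untreated wild-type TT2 cells (WT TT2). Each mutant line is 1 clone of the C57BL/6xCBA strain. Each group has 1 library, so no spread between replicates could be estimated, and every statement below compares libraries.

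G9a (gene Ehmt2) and GLP (gene Ehmt1) form a complex that places 1 or 2 methyl groups on lysine 9 of histone H3, a mark of repressed euchromatin. In mouse embryonic stem cells the complex is known to keep germline genes and genes of the earliest embryo silent, and its loss is also known to lower DNA methylation at many of those promoters. UNC0638 occupies the substrate groove of both enzymes and blocks the transfer of methyl groups without removing the proteins. A transcript can therefore stay at its level while the enzyme it encodes is inhibited. Ehmt2 had 78.9 CPM on day 4, against 77.2 CPM in the vehicle control. Ehmt1 had 46.4 CPM on day 4, against 50.9 CPM in the vehicle control. The exact 95% counting intervals of both ratios held 1, at 0.942 to 1.11 for Ehmt2 and 0.822 to 1.01 for Ehmt1. RNA levels of the 2 targets thus did not differ beyond counting error, and they say nothing of enzyme activity, which was not measured in the libraries used here.

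The day 4 library had 18053117 assigned reads and the vehicle control library 14760140, within a range of 11436808 to 25609600 over the 10 RNA libraries. All 11 embryonic stem cell markers were measured, at a summed level of 7538 CPM on day 4 and 7488 CPM in the vehicle control. Markers of other cell types were low: fibroblast markers, which would mark feeder cells, summed to 11.8 CPM on day 4 and 15.6 CPM in the vehicle control, with Dcn and Fap at 0 in both. Primitive endoderm markers summed to 13.5 CPM on day 4 and 14.0 CPM in the vehicle control, and mesoderm markers to 5.11 CPM on day 4 and 8.45 CPM in the vehicle control. The primitive endoderm sum hides members that went both ways, none of them called by the size rule below. Gata4 (2.38 CPM on day 4, 1.32 CPM in the vehicle control), Gata6, Sox17 and Pdgfra were above the vehicle control. Dab2 (4.52 CPM on day 4, 6.68 CPM in the vehicle control), Sox7 and Foxa2 were below it. The 5 neural markers summed to 191 CPM on day 4 and 178 CPM in the vehicle control, most of it from Tubb3, a tubulin that is not confined to neurons. Mitochondrially encoded genes took 1.76% of the counts on day 4 and 1.90% in the vehicle control. The vehicle control itself stood apart from untreated WT TT2: 6457 of 13667 genes (47.2%) passed the size rule described below between these wild-type libraries. What separates them beyond the solvent is not given in the labels, so the value in WT TT2 is set beside named genes whose direction depends on the control. List medians are given against the vehicle control alone, and most of them moved when WT TT2 replaced it.

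A gene was called higher or lower when its difference in log2(CPM + 1), day 4 minus vehicle control, was at least 1 in size and the exact 95% interval of its count ratio excluded 1. The interval covers counting error only, since reads amplified without molecular identifiers are not independent molecules. On day 4, 256 genes (1.95% of those measured) were higher and 88 (0.671%) were lower, so that 74.4% of the calls were higher. Counts for each list below are to be read against these shares over all measured genes. The median difference over all measured genes was -0.003, and the middle 50% of genes lay between -0.17 and 0.17. Most of the higher genes were close to silent in the control: their median level was 4.43 CPM on day 4 and 0.808 CPM in the vehicle control, while over all measured genes it was 16.5 CPM on day 4 and 16.6 CPM in the vehicle control. Of the 256, 144 were under 1 CPM in the vehicle control and had 1 CPM or more on day 4 alone, so the minimum itself let them in only as higher genes. The lower genes had a median of 1.72 CPM on day 4 and 5.29 CPM in the vehicle control. Just inside the threshold stood Calb2, at 19.5 CPM on day 4 and 9.25 CPM in the vehicle control (1.00), and just outside it Prdm1, at 12.2 CPM on day 4 and 5.66 CPM in the vehicle control (0.99). On the lower side Slc7a4, at 4.58 CPM on day 4 and 10.2 CPM in the vehicle control (-1.01), was inside and Dll3, at 10.6 CPM on day 4 and 21.7 CPM in the vehicle control (-0.97), was outside.

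**Figure D1:**
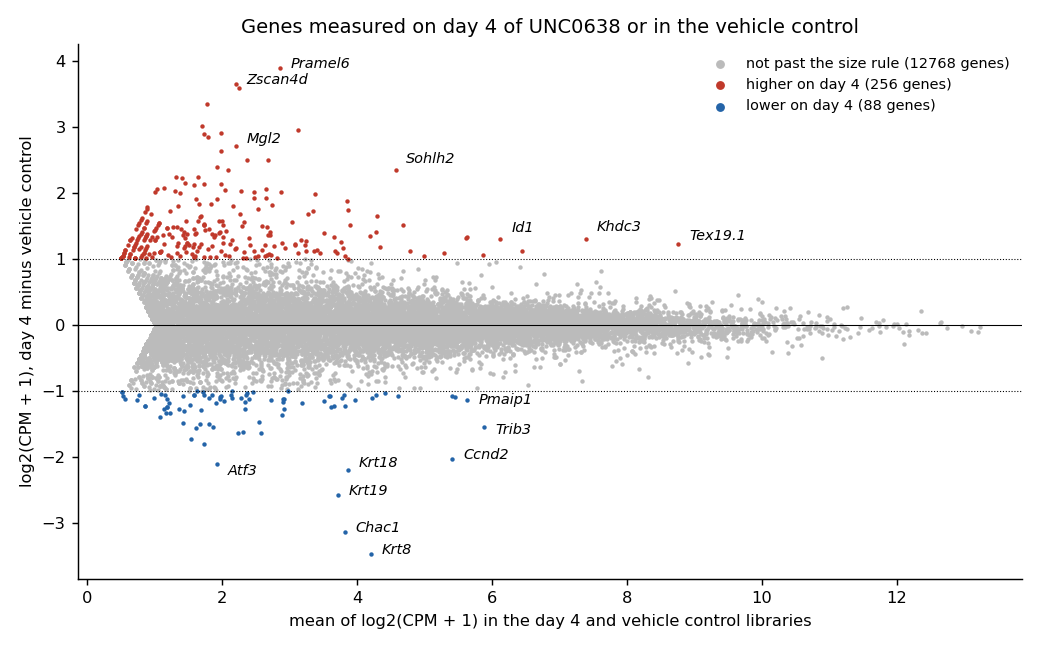
Each point is a gene; the x axis is the mean of its log2(CPM + 1) in the day 4 and vehicle control libraries and the y axis is the difference, day 4 minus vehicle control, with dotted lines at the threshold of 1. The 256 higher genes (red) lie mostly at low levels, and the 88 lower genes (blue) include a few that stand well below the rest, among them Krt8 and Chac1.

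Of 18 measured genes of the 2-cell embryo, 17 were higher on day 4. Such genes switch on when the mouse zygotic genome is first transcribed and flicker on in a small share of cultured stem cells. Zscan4d, a zinc finger gene that marks this transient state, had 15.3 CPM on day 4, against 0.294 CPM in the vehicle control. It was near silence in the control and clearly present on day 4, a ratio of 52.0 with a counting interval of 20.1 to 192 (chr7:11161643-11166148, GRCm38.p6). Gm5662, a predicted gene of the same embryonic programme, had 15.5 CPM on day 4, against 0.367 CPM in the vehicle control, and its relative Gm8300 had 9.80 CPM on day 4, against 0.441 CPM in the vehicle control. Both were thus close to silence in the control as well. Usp17lb, a deubiquitinase gene of a repeated cluster, had 8.26 CPM on day 4 and 0.147 CPM in the vehicle control, and the control value rests on 2 counts. Its ratio of 56.2 has a correspondingly wide counting interval of 15.3 to 469. Arg2, a mitochondrial arginase, had 3.86 CPM on day 4 and 0.881 CPM in the vehicle control. Zfp352, a zinc finger gene of the early embryo, had 1.19 CPM on day 4 and 0 counts in the vehicle control. The exception among measured members was Calcoco2, an autophagy receptor, with 189.6 CPM on day 4 and 123 CPM in the vehicle control, a difference below the threshold.

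Of 36 listed 2-cell genes, 18 were measured and 17 of those were higher, and the 18 log2 differences ran from 0.62 to 3.65 around a median of 2.02. Over all 36 listed genes, with those at 0 in both libraries set to 0, the median was 0.73. Only Calcoco2 among them had 1 CPM in the vehicle control, so the other 17 could be counted in no direction but higher. Counted over all 36 with no minimum level, the interval of the ratio lay above 1 for 23 genes and below 1 for 0 genes. The summed level of the list was 294 CPM on day 4 and 128 CPM in the vehicle control. Most of each sum came from Calcoco2, with 189.6 CPM on day 4 and 123 CPM in the vehicle control. The other days were compared with the same control library and are set beside day 4 without a test: on day 2, 14 of 16 measured members were higher, against 3.12% of all genes measured that day, and on day 14, 26 of 27 were higher, against 2.92% of all genes. The 18 genes measured on day 4 had a median difference of 4.36 on day 14. Zscan4d stood at 7.53 CPM on day 2 and 144 CPM on day 14, on either side of its day 4 level, and Gm5662 at 9.36 CPM on day 2 and 138 CPM on day 14. Bulk RNA cannot tell whether more cells expressed these genes or each expressing cell held more of their RNA. Members of the Zscan4, Usp17l and related predicted-gene families are nearly identical, so the list is firmer than any single member. The counting program's own spread from dividing shared reads was 0% of the day 4 count for Zscan4d, Usp17lb, Gm5662 and Gm8300. No division of reads among these genes thus shows in the counts.

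Genes of the oocyte and preimplantation embryo outside that programme were also higher. Pramel6, a leucine-rich repeat protein of the early embryo and the gene with the largest difference of all those named, had 26.8 CPM on day 4 and 0.881 CPM in the vehicle control. That is a 30.4-fold higher level with a counting interval of 17.2 to 59.3 (chr2:87506565-87510865). Its neighbour in the family, Pramel7, which is known to favour the ground state of pluripotency, had 7.25 CPM on day 4 and 0.881 CPM in the vehicle control. Khdc3, a maternal-effect gene whose protein belongs to the subcortical complex of the egg, was already well expressed in the control and had 262 CPM on day 4, against 105 CPM in the vehicle control, a 2.49-fold higher level (2.34 to 2.64). NLR genes of the oocyte were higher as well. Nlrp4c had 7.67 CPM on day 4, against 0.661 CPM in the vehicle control, and Nlrp4f had 28.1 CPM on day 4, against 10.4 CPM in the vehicle control. Nlrp14, a germ cell member of that family, had 11.2 CPM on day 4 and 2.20 CPM in the vehicle control, a ratio of 5.07 (3.44 to 7.72). In the list of Pramel, Nlrp4 and Khdc genes, 6 of 18 were measured, 5 were higher, 0 lower, and the median was 1.74, against 0.04 over all 18. Of the 6, 2 had at least 1 CPM in the vehicle control. Over all 18 with no minimum level, the interval of the ratio lay above 1 for 5 genes and below 1 for 0 genes. Elobl was the measured member that missed the threshold, with 0.881 CPM in the vehicle control and a log2 difference of 0.47. Pramel6 had 6.97 CPM on day 2 and 50.9 CPM on day 14, so that its day 4 level lay between them.

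The X chromosome held more of the higher genes than its share of measured genes: 28 of the 241 higher genes with a RefSeq position (11.6%) were on it, against 3.59% of all measured genes with one. The lower genes had 1 on the X chromosome. The median difference of the 462 measured X-linked genes was -0.04, so the chromosome as a whole did not shift. The Xlr genes, lymphocyte-regulated X-linked genes related to the meiotic protein Sycp3, made up 9 of the 28. Xlr3a had 42.3 CPM on day 4, against 14.2 CPM in the vehicle control. Xlr3b had 10.2 CPM on day 4, against 1.76 CPM in the vehicle control, and Xlr3c had 5.82 CPM on day 4, against 0.441 CPM in the vehicle control. All 9 measured Xlr genes of 15 listed were higher, with a median of 1.51, against 1.28 over all 15, and 4 of the 9 had at least 1 CPM in the vehicle control. Those under 1 CPM in the vehicle control could be counted in no direction but higher. Xlr3a was 2.98-fold higher (2.54 to 3.52), yet WT TT2 held 57.4 CPM of it, more than the day 4 library. Xlr4a, with 7.37 CPM on day 4 and 2.35 CPM in the vehicle control, had 11.4 CPM in WT TT2. The remaining called Xlr genes stood lower in WT TT2 than on day 4. In the Rhox cluster of X-linked reproductive homeobox genes, 2 of 7 measured genes were higher. Rhox10 had 4.81 CPM on day 4 and 1.69 CPM in the vehicle control, and Rhox2a had 3.51 CPM on day 4 and 0.0734 CPM in the vehicle control, the control value being 1 count. Rhox10 too was above its day 4 level in WT TT2, at 6.13 CPM. Magea5, a cancer-testis antigen gene, had 1.01 CPM on day 4 and 0 counts in the vehicle control, at least 4.58-fold higher when the control is set to a floor of 3 counts. It was the sole higher gene among 3 measured Mage genes. Nxf3, an X-linked gene of the nuclear RNA export family, had 11.3 CPM on day 4 and 1.18 CPM in the vehicle control.

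**Figure D2:**
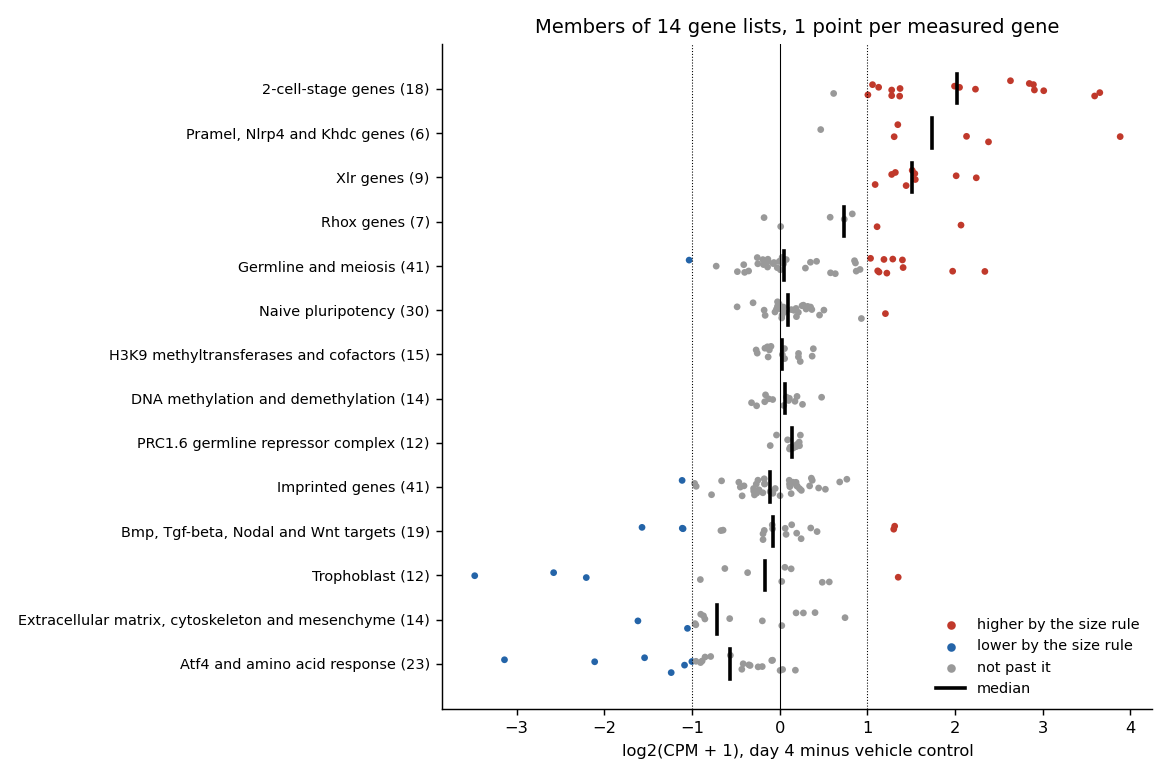
Each point is a measured gene of a list (number of measured genes in brackets), the x axis is log2(CPM + 1) on day 4 minus the vehicle control, and the black bar is the list's median. The 2-cell, Pramel/Nlrp4/Khdc and Xlr lists lie to the right, germline genes split into a tail of higher members and a body near 0, and the keratins and the Atf4 list hold the genes farthest to the left.

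Germline and meiosis genes moved in part. Of 41 measured, 10 were higher and 1 was lower, against 1.95% and 0.671% of all measured genes. The list's median of 0.04 hardly differed from that of all genes. Sohlh2, a basic helix-loop-helix factor of early germ cells, had 52.5 CPM on day 4, against 9.55 CPM in the vehicle control, a 5.50-fold higher level (4.57 to 6.66; chr3:55182044-55209957). Tex19.1, which restrains retrotransposons in germ cells and the early embryo, had 664 CPM on day 4, against 284 CPM in the vehicle control. Its paralogue Tex19.2 had 19.7 CPM on day 4, against 4.26 CPM in the vehicle control. Of the listed genes with a known part in the piRNA pathway, the small RNA defence of the germline, some were higher and others did not pass. Asz1 had 3.39 CPM on day 4 and 0.661 CPM in the vehicle control, and Fkbp6 had 13.1 CPM on day 4 and 4.77 CPM in the vehicle control. Mov10l1, a helicase, had 14.7 CPM on day 4 and 6.17 CPM in the vehicle control. Fkbp6 had 13.3 CPM in WT TT2, about its day 4 level. The piRNA genes Mael (-0.03), Pnldc1 (-0.13), Tdrd1 (-0.07), Tdrd12 (0.04), Tdrkh (0.03) and Piwil2 (0.35), given as log2 differences, stayed under the threshold, and Piwil4 (0.92) came nearest to it. Rpl10l, the testis copy of a ribosomal protein gene, had 30.7 CPM on day 4 and 10.9 CPM in the vehicle control, and Syce1, of the synaptonemal complex, had 44.6 CPM on day 4 and 21.2 CPM in the vehicle control. Tuba3a and Tuba3b, nearly identical testis tubulin genes, completed the higher members, Tuba3a with 128 CPM on day 4 and 58.2 CPM in the vehicle control. The lower member was Dmc1, the meiotic recombinase, with 2.61 CPM on day 4 and 6.39 CPM in the vehicle control. Other well-known members stayed under the threshold, such as Dazl, an RNA-binding protein of germ cells, at 13.1 CPM on day 4 and 6.76 CPM in the vehicle control. Ddx4, the germline helicase that also takes part in the piRNA pathway, had 28.0 CPM on day 4 and 29.4 CPM in the vehicle control, and Dppa3, known as Stella, had 139 CPM on day 4 and 152 CPM in the vehicle control.

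Many germline promoters carry an E-box that the repressor complex PRC1.6 reads, so the promoters of the higher germline genes were searched for it. The window of Fkbp6, which holds 2 matches, shows such a promoter; it runs from 250 bases before to 50 bases after the RefSeq start (chr5:135349995-135350294, GRCm38.p6, minus strand, RefSeq), and capitals mark the letters CACGTG.
Fkbp6: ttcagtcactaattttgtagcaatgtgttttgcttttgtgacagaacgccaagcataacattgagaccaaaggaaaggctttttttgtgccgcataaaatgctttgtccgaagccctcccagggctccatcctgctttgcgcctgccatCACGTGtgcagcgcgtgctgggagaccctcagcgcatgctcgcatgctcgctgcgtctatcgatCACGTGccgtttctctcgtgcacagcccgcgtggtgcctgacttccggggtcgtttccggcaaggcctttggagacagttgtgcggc
CACGTG reads the same on both strands. It occurred in 18 of 47 windows of the measured germline list (38.3%), against 10.2% of 12850 windows of all measured genes with one. Among the 11 germline genes that passed the size rule, however, windows of 2 genes held it, Fkbp6 and Mov10l1. Over all genes higher on day 4, 11 of 194 windows (5.67%) held it, below the share over all windows. The E2F letters GGCGGGA, searched on both strands, were in 8.76% of the windows of higher genes, 23.4% of those of lower genes and 20.8% of all windows. These are matches of letters in a fixed window, and binding was not measured here. RefSeq windows were matched for 10043 of the 13112 measured genes and for 172 of the 256 higher ones.

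Other large differences were those of single genes. Mgl2, a C-type lectin of macrophages and dendritic cells, had 10.8 CPM on day 4 and 0.808 CPM in the vehicle control, a 13.3-fold higher level (7.27 to 27.1). Nckap1l, the blood cell subunit of an actin-regulating complex, had 14.1 CPM on day 4 and 1.69 CPM in the vehicle control. Cd6, a receptor of T cells, had 11.8 CPM on day 4 and 2.06 CPM in the vehicle control. None of these 3 genes reached 3 CPM in the control. Lama3, a laminin chain of epithelial basement membranes, had 13.7 CPM on day 4 and 2.64 CPM in the vehicle control. Rpl39l, a testis-enriched copy of a ribosomal protein gene, had 26.7 CPM on day 4 and 6.54 CPM in the vehicle control, a 4.09-fold higher level (3.25 to 5.19). It and Rpl10l were the 2 higher genes among 82 measured cytosolic ribosomal protein genes, whose median was -0.12. In WT TT2 Rpl39l stood at 42.2 CPM, above its day 4 level, whereas Mgl2, Nckap1l and Cd6 stood at 1.42, 0.354 and 0.472 CPM there, below their day 4 levels.

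Of the keratins of simple epithelia, Krt8, Krt18 and Krt19 were lower on day 4, and Krt8 had the largest difference of all lower genes. It had 4.52 CPM on day 4, against 60.4 CPM in the vehicle control, a 13.4-fold lower level (10.6 to 17.2; chr15:101996711-102004342). Its partner Krt18, with which it forms filaments in trophoblast and other simple epithelia, had 5.76 CPM on day 4, against 30.2 CPM in the vehicle control, and Krt19 had 4.40 CPM on day 4, against 31.2 CPM in the vehicle control. These 3 keratins were lower together, by 13.4-, 5.24- and 7.10-fold. Krt7, another keratin of simple epithelia, had 2.26 CPM on day 4 and 2.20 CPM in the vehicle control. The 3 lower keratins depend on the control that is chosen: WT TT2 held Krt8 at 3.11 CPM and Krt19 at 1.46 CPM, below the day 4 levels, and Krt18 at 9.28 CPM, between the day 4 and vehicle control levels. Krt8, Krt18 and Krt19 stood at 5.55, 8.40 and 12.8 CPM on day 2 and at 24.2, 13.6 and 12.1 CPM on day 14, so the vehicle control was the highest of the 5 wild-type TT2 libraries for each. No other gene of the trophoblast list was called lower, and those under the threshold went both ways. Hand1 (-0.90), Gata2 (-0.62) and Tfap2c (-0.36), given as log2 differences, had counting intervals of the ratio below 1. Those of Esx1 (0.57) and Ets2 (0.49) lay above 1. Gata3, a trophoblast transcription factor, was higher, at 4.93 CPM on day 4 and 1.32 CPM in the vehicle control. Elf5, the trophoblast stem cell factor, stayed under 1 CPM in both libraries, and Cdx2 had 0 counts on day 4 and 0.147 CPM in the vehicle control. Of 12 measured genes in the trophoblast list, 1 was higher and 3 were lower, with a median of -0.17 (over all genes, 1.95% were higher and 0.671% lower). The shorter set of 7 trophoblast markers summed to 14.8 CPM on day 4 and 35.2 CPM in the vehicle control. It shares Gata3, Elf5, Krt7, Krt18 and Plac1 with the list. The part of an admixed cell type in the keratin difference was not tested.

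Several targets of Atf4, the transcription factor that amino acid shortage and other stresses call up through translation, were among the genes lower on day 4. Chac1, an enzyme that breaks down glutathione, had 3.74 CPM on day 4, against 40.8 CPM in the vehicle control, a 10.9-fold lower level (8.38 to 14.4; chr2:119351242-119354326). Atf3, a stress-induced transcription factor, had 0.832 CPM on day 4 and 6.90 CPM in the vehicle control, 8.30-fold lower (4.71 to 15.8). Trib3, a pseudokinase that damps the same response, had 33.7 CPM on day 4 and 99.9 CPM in the vehicle control. All of these were well covered in the control and fell short of it on day 4. Stc2, a secreted glycoprotein, had 7.25 CPM on day 4 and 18.4 CPM in the vehicle control. Slc6a9, a glycine transporter, had 1.72 CPM on day 4 and 4.77 CPM in the vehicle control, and Ddit3, known as CHOP, had 1.19 CPM on day 4 and 3.38 CPM in the vehicle control. Of 23 measured genes in the Atf4 and amino acid response list, 0 were higher and 6 were lower, against 1.95% and 0.671% of all genes. In that list 20 had negative differences, with a median of -0.56. Not all members took part: Asns, asparagine synthetase, had 602 CPM on day 4 and 600.02 CPM in the vehicle control, and the amino acid transporter Slc7a3 had 297 CPM on day 4 and 290.1 CPM in the vehicle control. Atf4 itself had 119 CPM on day 4 and 215 CPM in the vehicle control, short of the threshold at -0.85.

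The list stood differently against the control on the other collection days, whose comparisons share the control library and were not tested against each other. Against that control, 8 of 23 members were higher and 0 lower on day 2, with a median of 0.74, and 0 were higher and 2 lower on day 14, with a median of -0.47 (over all genes, 3.12% were higher and 1.84% lower on day 2, and 2.92% higher and 0.535% lower on day 14). Chac1 stood at 40.8 CPM in the vehicle control, 119.8 CPM on day 2, 3.74 CPM on day 4 and 9.82 CPM on day 14. Over the same 4 libraries Ddit3 had 3.38, 32.5, 1.19 and 4.71 CPM, and Atf3 had 6.90, 13.7, 0.832 and 3.81 CPM. Day 2 was thus the highest and day 4 the lowest point for each of them. Set directly against day 2, 255 of 13324 genes were higher on day 4 (1.91%) and 319 were lower (2.39%), and among the lower ones were Chac1 (-4.67), Ddit3 (-3.94), Atf3 (-3.00) and Trib3 (-2.54). WT TT2 held 58.2 CPM of Chac1, 38.3 CPM of Ddit3 and 11.4 CPM of Atf3, more than the day 4 library held, whereas its 38.9 CPM of Trib3 and 7.87 CPM of Stc2 were close to the day 4 levels.

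The amino acid response element, to which Atf4 binds with a partner, lies near the start of several of these genes, and the windows of Chac1 and Atf3, the 2 list members with the largest differences, are shown with it. Both are RefSeq windows on GRCm38.p6 from 250 bases before to 50 bases after the start, at chr2:119350992-119351291 (plus strand) for Chac1 and chr1:191183284-191183583 (minus strand) for Atf3, and capitals mark a match to TGATGNAA on either strand.
Chac1: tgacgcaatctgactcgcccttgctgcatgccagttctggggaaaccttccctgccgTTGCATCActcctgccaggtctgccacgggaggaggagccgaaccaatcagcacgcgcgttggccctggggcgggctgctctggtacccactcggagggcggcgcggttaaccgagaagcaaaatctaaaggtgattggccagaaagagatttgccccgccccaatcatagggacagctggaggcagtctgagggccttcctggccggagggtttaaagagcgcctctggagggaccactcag
Atf3: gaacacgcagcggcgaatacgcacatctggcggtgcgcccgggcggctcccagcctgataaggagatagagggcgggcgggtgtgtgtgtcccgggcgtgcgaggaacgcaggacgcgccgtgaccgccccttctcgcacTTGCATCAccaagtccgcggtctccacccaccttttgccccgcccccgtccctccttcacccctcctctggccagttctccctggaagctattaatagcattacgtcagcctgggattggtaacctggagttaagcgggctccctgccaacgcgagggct
The match began 193 bases before the start in Chac1 and 110 bases before it in Atf3. The letters were in 8 of 23 windows of the measured Atf4 list (34.8%) and in 2.19% of the 12850 windows of all measured genes. Windows of 3 of the 6 lower list members held them (Chac1, Atf3 and Trib3). Over all genes lower on day 4, 6 of 77 windows (7.79%) held the letters, and over all higher genes 2 of 194 (1.03%).

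**Figure D3:**
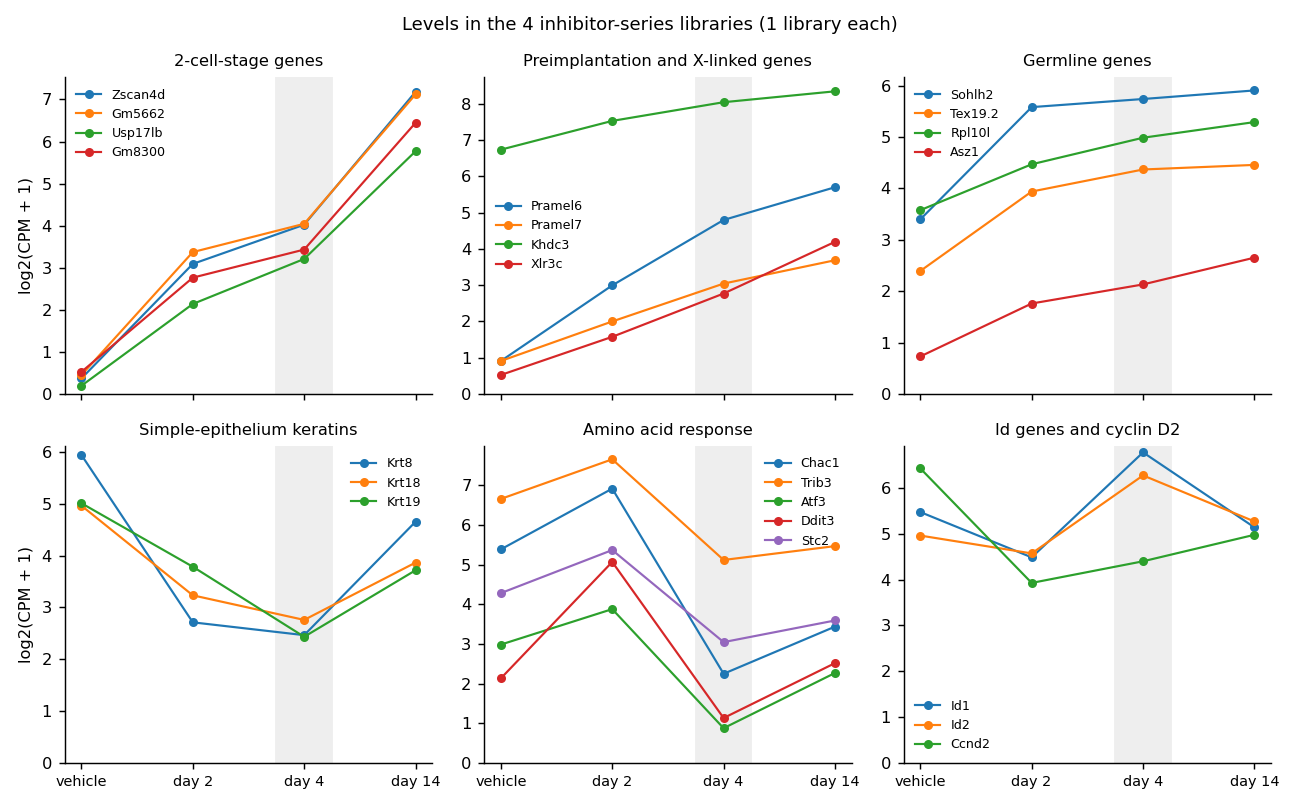
Levels on the y axis are log2(CPM + 1) in the vehicle control and on days 2, 4 and 14 of UNC0638, 1 library each, evenly spaced along the x axis, with day 4 shaded. The 2-cell, preimplantation, X-linked and germline genes shown were lowest in the vehicle control, the amino acid response genes had their maximum on day 2 and their minimum on day 4, and Id1 and Id2 had their maximum on day 4.

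Few genes had their extreme on day 4 alone. Of 13710 genes with 1 CPM in any of the 4 inhibitor-series libraries, 4 were above all 3 other libraries on day 4 by the size threshold and 7 were below them. The 2 of the 4 with 10 CPM and a standard symbol were Id1 and Id2, inhibitors of basic helix-loop-helix factors and direct targets of Bmp signalling, which helps to hold mouse stem cells in self-renewal. Id1 had 43.4 CPM in the vehicle control, 21.4 CPM on day 2, 108 CPM on day 4 and 34.2 CPM on day 14. Id2 had 30.1, 22.8, 76.3 and 37.5 CPM in the same libraries. Day 4 exceeded the control 2.53-fold for Id2, with a counting interval of 2.27 to 2.84, and the interval for Id1 was 2.28 to 2.75. In WT TT2 Id2 had 60.6 CPM, nearer to its day 4 level than the vehicle control was. Id1 had 20.7 CPM there, below its vehicle control level. Id3, a further member of the family, had 148 CPM in the vehicle control and a log2 difference of 0.43, short of the threshold. Below all 3 others on day 4 stood Atf3, Chac1, Ddit3 and Krt19, described above, and Kif1a, a kinesin of axonal transport, with 3.86 CPM on day 4 and 10.8 CPM in the vehicle control.

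The list of Bmp, Tgf-beta, Nodal and Wnt targets had no common direction, with 2 of 19 measured genes higher (Id1 and Id2), 3 lower and a median of -0.08. The lower ones included Sp5, a Wnt target, at 0.772 CPM on day 4 and 4.26 CPM in the vehicle control, and Fos, an early response gene, at 11.6 CPM on day 4 and 26.3 CPM in the vehicle control. Axin2, commonly used as a Wnt readout, had 1.78 CPM on day 4 and 1.18 CPM in the vehicle control. Genes of 2 Wnt ligands were lower. Wnt7b had 3.62 CPM on day 4 and 10.9 CPM in the vehicle control, and Wnt3, a ligand of the primitive streak, had 0.119 CPM on day 4 and 1.47 CPM in the vehicle control, the day 4 value being 2 counts. In WT TT2 Sp5 (0.118 CPM), Fos (2.05 CPM) and Wnt7b (0.354 CPM) were below their day 4 levels, so their direction depends on the control. Ccnd2, which encodes cyclin D2 and drives entry into the cell cycle, had 20.1 CPM on day 4 and 85.0 CPM in the vehicle control, a 4.23-fold lower level (3.74 to 4.79; chr6:127125162-127152188). It was the sole gene past the threshold among 16 measured cyclins and cell cycle inhibitors. Ccnd2 stood at 14.2 CPM on day 2 and 30.5 CPM on day 14, below the vehicle control on each day, and at 37.8 CPM in WT TT2.

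Other lower genes were scattered over functions. Pmaip1, known as Noxa and a target of p53 that promotes cell death, had 32.4 CPM on day 4 and 72.9 CPM in the vehicle control, and was the sole gene called among 21 measured p53 targets. Anxa3, a calcium-dependent membrane-binding protein, had 1.84 CPM on day 4 and 7.71 CPM in the vehicle control, and Anxa1 of the same family had 0.475 CPM on day 4 and 2.06 CPM in the vehicle control. They were the 2 lower genes among 14 measured genes of extracellular matrix, cytoskeleton and mesenchyme, a list with 0 higher and a median of -0.71, against -0.48 over all 19 listed. Cldn7, a tight junction protein, had 8.26 CPM on day 4 and 20.7 CPM in the vehicle control. Tubb4a, a tubulin, had 6.95 CPM on day 4 and 17.9 CPM in the vehicle control, and Sh2d3c, a signalling adaptor, had 5.05 CPM on day 4 and 12.7 CPM in the vehicle control. In WT TT2 Pmaip1 (27.7 CPM), Tubb4a (1.69 CPM) and Sh2d3c (2.44 CPM) were below their day 4 levels, so that these calls too depend on the control, and Cldn7 (8.81 CPM) was close to it. Sgce, an imprinted sarcoglycan gene, had 2.32 CPM on day 4 and 6.17 CPM in the vehicle control and was the sole called gene among 41 measured imprinted genes, whose median was -0.11.

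Pluripotency genes mostly stayed under the threshold. Of 30 measured naive pluripotency genes, 1 was higher and 0 were lower, with a median of 0.09 (over all genes, 1.95% were higher and 0.671% lower). Of the core factors, Pou5f1 had 406 CPM on day 4 and 455 CPM in the vehicle control, and Nanog had 164 CPM on day 4 and 159 CPM in the vehicle control. The higher member, Ceacam1, is a cell adhesion protein and had 11.8 CPM on day 4 and 4.55 CPM in the vehicle control. Tbx3, which supports self-renewal, came close to the threshold, with 60.8 CPM on day 4 and 31.4 CPM in the vehicle control. Of 13 measured genes of formative and primed pluripotency 0 were called, and their median was -0.32. Dnmt3b, a de novo DNA methyltransferase, had 409 CPM on day 4 and 511 CPM in the vehicle control, and Otx2, a factor of the epiblast, had 8.85 CPM on day 4 and 16.5 CPM in the vehicle control. Among 14 primitive endoderm genes Srgn, a proteoglycan core protein, was the sole gene called, at 2.14 CPM on day 4 and 0.441 CPM in the vehicle control.

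None of the genes for the machinery around the mark passed the size rule. This held for 15 measured H3K9 methyltransferases and cofactors (median 0.03), 10 H3K9 demethylases (-0.08), 11 HP1 and nuclear lamina genes (-0.11), 14 genes of DNA methylation and demethylation (0.06) and 12 genes of PRC1.6 (0.14), the complex that represses germline genes. The same count of 0 was found for lists of metabolism and growth: sterol synthesis (25 genes, 0.00), serine and one-carbon synthesis (17 genes, -0.05), glycolysis (21 genes, -0.16), replication licensing (19 genes, 0.06) and nuclear oxidative phosphorylation (91 genes, -0.03). The unfolded protein and heat shock list, which covers the other arms of the stress response, had 0 of 16 genes called and a median of 0.09. Of 20 measured interferon response genes and nucleic acid sensors, which transcripts of retroelements can switch on, 1 was higher, against 1.95% of all genes. This was Ifi27, at 3.92 CPM on day 4 and 0.881 CPM in the vehicle control. Among 22 measured replication-dependent histone genes 1 was higher, Hist1h2ab, with 8.14 CPM on day 4 and 3.38 CPM in the vehicle control. A 0 here means that no member differed by the size set, and smaller differences cannot be judged with 1 library in each group.

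The mutant lines give a second view of the same enzymes with libraries that the day 4 comparison does not use. Against WT TT2, the library labelled G9a/GLP DKO had 1370 higher genes of 14027 (9.77%) and 995 lower ones (7.09%), and G9a CM had 729 higher genes of 13504 (5.40%) and 685 lower ones (5.07%). In the library labelled G9a/GLP DKO, Ehmt1 had 7.95 CPM against 38.3 CPM in WT TT2, whereas Ehmt2 had 17.9 CPM there and 27.8 CPM in G9a CM, against 14.6 CPM in WT TT2. Ehmt2 RNA was thus not lower in either line. Of 236 genes higher on day 4 that were measured in both comparisons, 160 (67.8%) had the same call in the library labelled G9a/GLP DKO, which is 18.1% of that line's 886 higher genes, where 7.20% of all genes were. With G9a CM the count was 124 of 218 (56.9%), or 21.5% of its 576 higher genes, where 4.71% of all genes were. Of the 256 higher genes, 144 were under 1 CPM in the vehicle control. Such a gene, if also under 1 CPM in WT TT2, was measured there only where the mutant reached 1 CPM. It could then be called in no direction but higher. The DKO-labelled comparison left out 20 of the 256 as not measured, and that of G9a CM left out 38. The shares over all genes are therefore not a like baseline. Of the genes lower on day 4, 28 of 69 (40.6%, or 3.18% of that line's 880 lower genes) had the same call in the library labelled G9a/GLP DKO, where 7.15% of all genes were lower, and 13 of 70 (18.6%, or 2.17% of its 598 lower genes) in G9a CM, where 4.89% were. Here the DKO-labelled comparison left out 19 of the 88 lower genes as not measured, and that of G9a CM left out 18. Of the higher genes, 6 were lower in the DKO-labelled library and 7 in G9a CM. Of the lower genes, 5 were higher in the DKO-labelled library and 8 in G9a CM, Krt8 and Krt19 in both.

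Named genes show how the sizes compared. Pramel6 had 271 CPM in the library labelled G9a/GLP DKO and 108 CPM in G9a CM, against 1.46 CPM in WT TT2, levels above its 26.8 CPM on day 4. Nckap1l had 13.9 CPM in the DKO-labelled library and 10.2 CPM in G9a CM, against 0.354 CPM in WT TT2. Xlr3b had 41.7 CPM in the DKO-labelled library and 56.4 CPM in G9a CM, against 5.55 CPM in WT TT2. These genes were higher in each mutant line as on day 4. Zscan4d was at unlike levels in the lines, with 42.8 CPM in the library labelled G9a/GLP DKO and 2.77 CPM in G9a CM, against 0.629 CPM in WT TT2. Tex19.1, higher on day 4, was not higher in the mutants, with 127 CPM in the DKO-labelled library and 142 CPM in G9a CM, against 169.5 CPM in WT TT2. Over the germline list, the library labelled G9a/GLP DKO had 6 higher and 10 lower genes of 45 measured, and G9a CM had 10 higher and 3 lower of 46. Ccnd2 was lower in both lines, with 0.866 CPM in the DKO-labelled library and 2.95 CPM in G9a CM, against 37.8 CPM in WT TT2. Chac1 was lower too, with 5.82 CPM in the DKO-labelled library and 27.6 CPM in G9a CM, against 58.2 CPM in WT TT2. Krt8 and Krt19 went the other way, Krt8 with 15.0 CPM in the DKO-labelled library and 13.8 CPM in G9a CM, against 3.11 CPM in WT TT2. The 2 mutant comparisons share WT TT2, so they are not independent of each other.

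**Figure D4:**
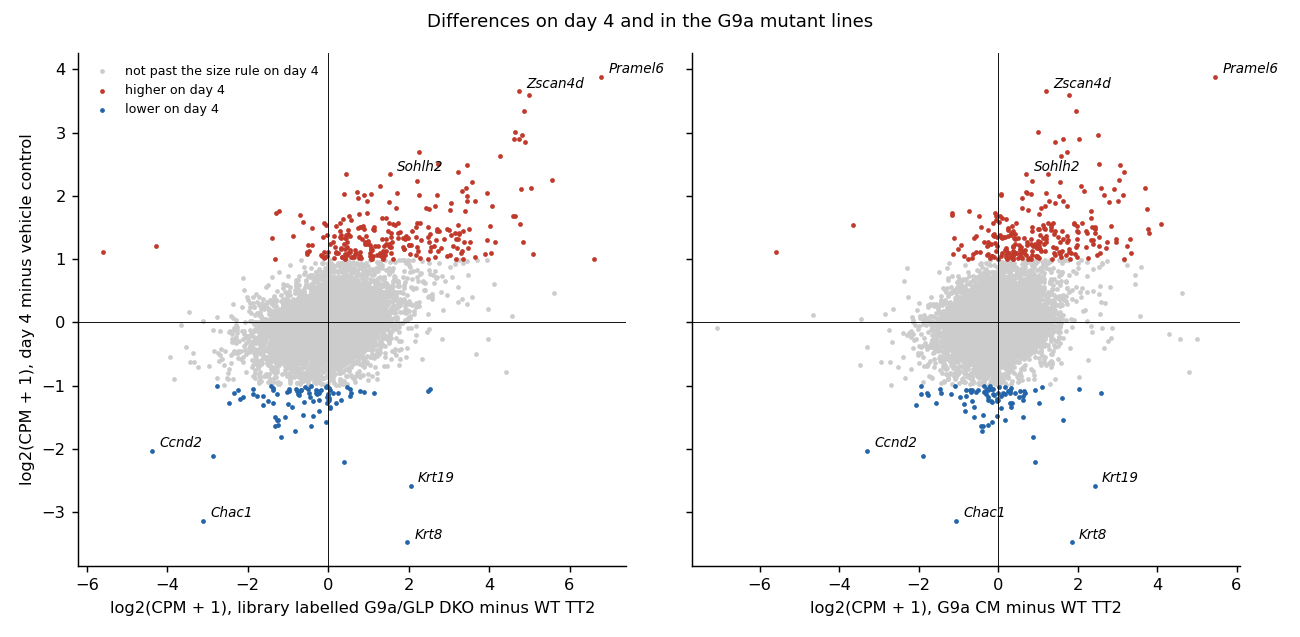
Each point is a gene, with its log2(CPM + 1) difference on day 4 against the vehicle control on the y axis and its difference in a mutant line against WT TT2 on the x axis (left, the library labelled G9a/GLP DKO; right, G9a CM). Most genes higher on day 4 (red) lie to the right of 0 in both panels, among them Pramel6, and of the labelled lower genes (blue) Ccnd2 and Chac1 lie to the left while Krt8 and Krt19 lie to the right.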

How the data were processed

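Gene expression was measured by RNA-seq of total RNA with Smart-seq2 libraries, per the labels' protocols. The submitters' processing notes name STAR 2.5.3a, RSEM and the builds GRCm38 and mm10. Annotation release and strand setting are not given in the sources used here; overlapping and antisense genes therefore cannot be told apart. The deposited values are RSEM expected counts per gene, with multi-mapping reads divided among genes, and were rounded to whole numbers. The deposited TPM values, which the authors' RSEM run scaled for gene length, served as an alternative. CPM were computed with TMM factors over the 10 RNA libraries (edgeR 4.0.16, R 4.3.3). A call needed a log2(CPM + 1) difference of at least 1, at least 1 CPM in either library and a count ratio whose exact 95% interval, from the conditional binomial (Clopper-Pearson), excluded 1. No pseudocount enters the folds, which are CPM ratios. A library's floor of 3 counts was 0.178 CPM on day 4 and 0.220 CPM in the vehicle control. The script was tested on simulated data. Positions, gene types and promoters came from RefSeq tables of GRCm38.p6, which held 98.3% of measured genes.

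The genes compared and the 42 gene lists were chosen with earlier results of these data known. Named genes were Ehmt1, Ehmt2, the 12 higher and 12 lower protein-coding genes with the largest difference, at least 10 CPM and a standard symbol, up to 4 called genes of each list, and genes extreme on day 4 or called in both mutant lines. Other members of a list were named for their known roles, where few were left, or as exceptions to the list, after their values were seen. Alternatives were DESeq2 1.42.0 size factors, total-count scaling, TPM, other pseudocounts, minimums and thresholds, and WT TT2 as the control. No p-value was computed, because each group had 1 library. One gene of the signalling target list is counted but not reported by name here.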

Additional observations from a re-analysis of the deposited data

Results flagged for a closer look

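Of the genes named in the sections above, 3 were called lower on day 4 and higher on day 2. Over all genes, 5 of the 88 lower on day 4 were called higher on day 2, among them Pck2 and Slc1a4, given further below. Of the 256 higher on day 4, 1 was called lower on day 2. In log2(CPM + 1) against the vehicle control, Chac1 was at -3.14 on day 4 and 1.53 on day 2, Stc2 at -1.24 on day 4 and 1.09 on day 2, and Ddit3 at -1.0005 on day 4 and 2.94 on day 2. The difference between days was not tested, since each day has 1 library, and both days share the control library.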

How the results depend on the processing

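No paired analysis was possible because each group had 1 library. The counts of 256 higher and 88 lower genes were 236 and 81 with factors from the 2 libraries alone, 241 and 81 with total-count scaling and 254 and 90 with DESeq2 size factors. They were 431 and 200 with TPM, without the counting interval, 359 and 184 with a pseudocount of 0.5 CPM, 134 and 35 with one of 2 CPM, 111 and 48 with a minimum of 5 CPM, 641 and 526 with a log2 threshold of 0.58 (54.9% higher) and 32 and 6 with one of 2. With WT TT2 as the control they were 3578 and 3043 of 13762 genes (54.0% higher), so the count depends on the control. Of the day 4 calls against the vehicle control, 148 of 256 higher and 28 of 88 lower genes had the same call against WT TT2, and 9 higher and 10 lower ones had the opposite call. Of the 56 genes picked by the naming rule, 16 kept their direction but missed the threshold and 10 changed sign. In that comparison Rpl39l (-0.64), Rhox10 (-0.30), Krt8 (0.43), Krt19 (1.14), Wnt7b (1.77), Tubb4a (1.56), Sh2d3c (0.82), Pmaip1 (0.22), Sp5 (0.66) and Fos (2.05) were those of the 56 with changed sign. Genes named outside that rule could change sign too, such as Xlr3a and Xlr4a, each lower on day 4 than in WT TT2. Of the list medians, 28 moved with WT TT2 as the control and 14 stayed the same. Most list medians thus depend on the control too. The cause of these changes was not tested. With the vehicle control as the mutants' reference, a library then shared with day 4, the shared genes were 177 higher and 59 lower for the library labelled G9a/GLP DKO and 152 higher and 38 lower for G9a CM. Under total-count scaling Magea5 (0.96) and Ddit3 (-0.97) missed the threshold. Levels under about 1 CPM rest on few counts in libraries of this depth, so small differences there were not detectable.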

Other observations

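The genes given here were picked after their values were seen, so they stand as single values and not as groups. Cd3e, a subunit of the T cell receptor complex, had 4.93 CPM on day 4, against 0.661 CPM in the vehicle control. Was, the Wiskott-Aldrich syndrome protein gene, had 5.82 CPM on day 4 and 1.40 CPM in the vehicle control. Btk, a kinase of B cells, had 2.26 CPM on day 4 and 0.294 CPM in the vehicle control, and Tnfrsf8, a receptor of activated lymphocytes, had 11.5 CPM on day 4 and 2.57 CPM in the vehicle control. Itgal, an integrin of leukocytes, had 19.3 CPM on day 4 and 8.81 CPM in the vehicle control. Each stood lower in WT TT2 than in the day 4 library, at 0.275 CPM for Cd3e, 0.393 CPM for Was, 0 counts for Btk, 0.0787 CPM for Tnfrsf8 and 1.97 CPM for Itgal.

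Myh3, an embryonic myosin heavy chain, had 24.2 CPM on day 4 and 7.78 CPM in the vehicle control, Tnni1, slow troponin I, had 7.19 CPM on day 4 and 1.91 CPM in the vehicle control, and Smyd1, a muscle methyltransferase, had 3.74 CPM on day 4 and 1.32 CPM in the vehicle control. Of genes outside the Atf4 list, Pck2, a mitochondrial enzyme of phosphoenolpyruvate synthesis, had 15.7 CPM on day 4 and 34.4 CPM in the vehicle control, and Slc1a4, a transporter of neutral amino acids, had 28.9 CPM on day 4 and 62.9 CPM in the vehicle control. On day 2 Pck2 stood at 84.8 CPM and Slc1a4 at 179 CPM, each above the vehicle control.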
